A study of Sus scrofa with 13 samples.

Results

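ANKRD1, FLNC, ACTN2 and MYOM2 are 4 genes of the Z-disc, the I-band and the M-band, the places where a muscle fibre anchors its filaments and bears load. They were taken by their gene symbols, and each is represented on the array by 1 probe set, so the account covers 4 of 10283 named genes and 4 of 21893 probe sets. The array was run on RNA from 13 samples of biceps femoris muscle of German Landrace pigs. At 2 days of age there were 4 animals with a knockout of the dystrophin gene (DMD KO) and 3 wild-type animals (WT), and at 3 months there were 3 of each. The DMD KO pigs carried a deletion of exon 52 of DMD and were cloned by nuclear transfer from modified primary kidney cells, whereas cloning is not mentioned for WT. Tissue of DMD KO animals was taken right after they died and WT animals of matching age were killed for the purpose, so genotype, cloning and manner of death cannot be told apart in any DMD KO minus WT difference below. The labels number the replicates of a group but do not give litter or sex, say how many cell clones the DMD KO pigs came from, or state that each sample is a separate animal. Samples are called animals below on the reading that they are, and p-values measure only the spread between these samples, which may be technical.

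The Z-disc is the plate that borders each sarcomere and holds the ends of the actin thin filaments, and the M-band lies in the middle and holds the myosin thick filaments. Alpha-actinin 2, the product of ACTN2, cross-links thin filaments in the Z-disc. Filamin C, the product of FLNC, is a large actin cross-linker of the Z-disc and of the membrane beside it, where it binds sarcoglycans of the dystrophin complex, and is replaced by chaperone-assisted autophagy when load damages it. Myomesin 2 (M-protein), the product of MYOM2, ties myosin to titin in the M-band and is typical of fast fibres. ANKRD1, also called CARP, is a muscle ankyrin repeat protein that binds the spring region of titin, also acts in the nucleus, and is known to be induced by stretch and injury and to be a target of the YAP and TAZ cofactors.

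Values are log2 levels as deposited, read as log2 from their range of 2.81 to 13.79, so 1 unit is a doubling. The arrays had medians between 7.32 and 7.38 and 25th percentiles between 6.53 and 6.61. WT replicate 3 at 2 days stood apart from the others, with a mean correlation of 0.918 to them against 0.943 to 0.964 for the rest. The 5 of 10 skeletal muscle markers that were measured (ACTA1, NEB, TCAP, CASQ1 and MYLPF) had a mean level between 11.38 and 11.85 on every array, and 5 measured heart muscle markers (MYL7, NKX2-5, NPPA, NPPB and RYR2) one between 7.18 and 7.55, near the array medians. The targeted gene, DMD, had 2 probe sets, whose exons are not given in the files used here, and neither differed between genotypes past the threshold at 2 days (0.11 and 0.23, adjusted p = 0.705 and 0.423) or at 3 months (-0.22 and -0.0021, adjusted p = 0.528 and 0.996). They therefore do not check the genotype labels. A gene was called where limma gave an adjusted p under 0.05 over all probe sets. In RNA of whole tissue, a change in the number of cells of a type and a change of RNA per cell cannot be told apart.

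ANKRD1 and ACTN2 stood higher in DMD KO pigs of either age, FLNC stood higher at 2 days, and MYOM2 was lower at 2 days. At 2 days all 4 genes passed, where 9.93% of all probe sets did, and at 3 months 2 of the 4 passed, where 5.98% did. The genes were picked with their differences at 2 days and other earlier results of these data known, so nothing is read from the counts at either age. For none of the 4 did the test show that the genotype difference itself differed between the ages (0 of 4, where 5.05% of probe sets were called).

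**Figure D1:**
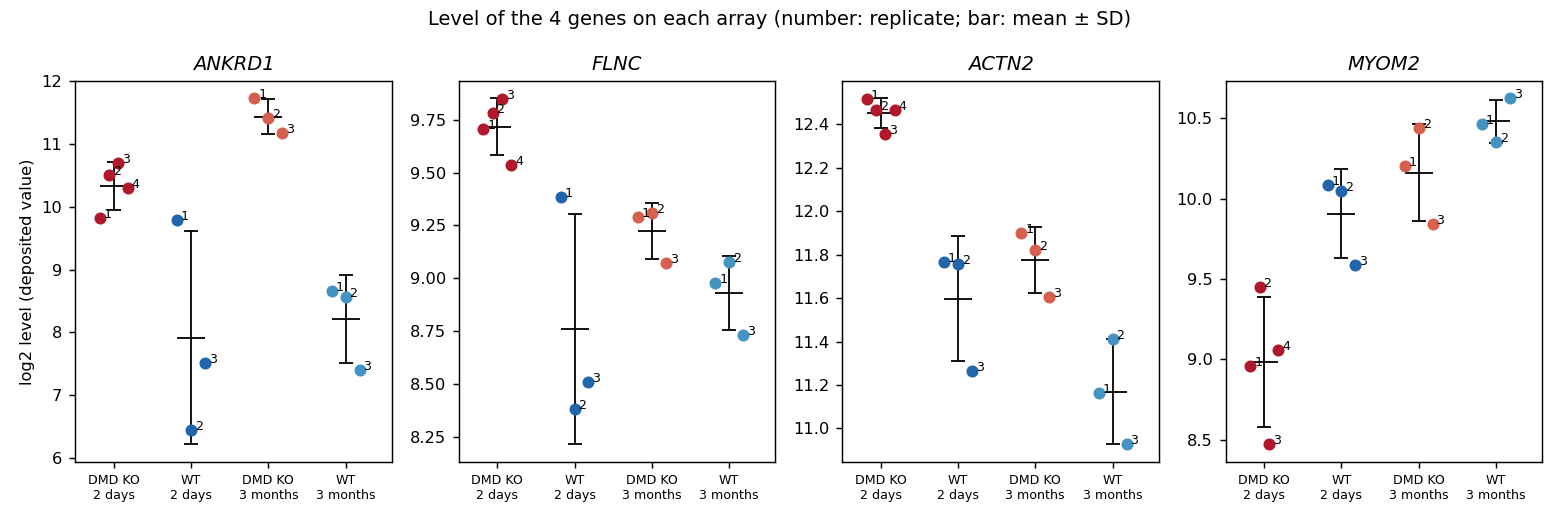
Log2 level of ANKRD1, FLNC, ACTN2 and MYOM2 (panels, each with its own vertical axis) on each of 13 arrays by group, with the replicate number beside each point and the mean ± SD as a bar. The 3 DMD KO animals at 3 months carry the highest ANKRD1 values, and WT replicate 1 at 2 days lies just under the DMD KO values of its age.

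ANKRD1 (probe set 15233409) stood at 9.82, 10.51, 10.70 and 10.30 in DMD KO replicates 1 to 4 at 2 days. In WT replicates 1 to 3 of that age it stood at 9.78, 6.45 and 7.52. The groups did not overlap, but WT replicate 1 lay just under DMD KO replicate 1, while the value of WT replicate 2 lay below the 25th percentile of its array. In the older pigs the DMD KO animals had 11.73, 11.41 and 11.17 and the WT animals 8.67, 8.57 and 7.40, a wide gap with no overlap. Groups that do not overlap occurred in 24.6% of probe sets between genotypes at 2 days and in 23% at 3 months.

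The mean level of ANKRD1 at 2 days was 10.33 ± 0.38 (SD, n = 4) in DMD KO against 7.92 ± 1.70 (SD, n = 3) in WT, a 5.33-fold difference (log2 2.41 ± 0.59, SE, adjusted p = 0.0241, 95% interval 1.13 to 3.70). At 3 months it was 11.44 ± 0.28 in DMD KO and 8.21 ± 0.71 in WT (SD, n = 3 each), a 9.35-fold difference (log2 3.23 ± 0.63, SE, adjusted p = 0.00919, 95% interval 1.85 to 4.60). Ranked by difference, ANKRD1 was number 8 from the top of 10283 named genes at 2 days and number 5 at 3 months. These ranks describe a gene picked with earlier results of these data known and are no test. The rise at 3 months passed under every alternative tried, with values from 2.82 to 3.62 and adjusted p from 0.00038 to 0.0491. The call at 2 days did not hold without DMD KO replicate 2, 3 or 4 (adjusted p = 0.0593, 0.0642 and 0.0592) or without WT replicate 2 or 3 (adjusted p = 0.051 and 0.0866). The difference was then 2.36, 2.29, 2.42, 1.68 and 2.22, within a range over all alternatives of 1.01 to 3.35 and of adjusted p from 0.000859 to 0.16. The low end came from array weights, which gave WT replicate 1 a weight of 4.73 and replicates 2 and 3 weights of 0.64 and 0.19.

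The order of ANKRD1 levels was DMD KO at 3 months, DMD KO at 2 days, WT at 3 months and WT at 2 days. Both DMD KO groups lay apart from the next group below, and the 2 WT groups overlapped. With age, ANKRD1 differed by 1.11 in DMD KO (SE 0.59, adjusted p = 0.385) and by 0.29 in WT (SE 0.63, adjusted p = 0.932), and neither passed, although the DMD KO groups did not overlap. The genotype difference was larger at 3 months by 0.81 ± 0.87 (SE, adjusted p = 0.774, 95% interval -1.07 to 2.69). Without WT replicate 1 at 2 days that value was -0.12 (adjusted p = 0.957). The share of all probe sets called between the ages was 2.89% in WT and 8.04% in DMD KO, and groups of the 2 ages did not overlap for 13.3% and 20.8%.

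FLNC (probe set 15252526) was measured at 9.71, 9.78, 9.85 and 9.54 in DMD KO replicates 1 to 4 and at 9.38, 8.38 and 8.51 in WT replicates 1 to 3 at 2 days. WT replicate 1, the array that was also high for ANKRD1, lay nearest to the knockout animals. In the older pigs the values were 9.29, 9.31 and 9.07 in DMD KO and 8.98, 9.08 and 8.73 in WT. DMD KO replicate 3 and WT replicate 2 met there, so the groups overlapped.

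The mean of FLNC at 2 days was 9.72 ± 0.13 (SD, n = 4) in DMD KO against 8.76 ± 0.55 (SD, n = 3) in WT, a 1.95-fold difference (log2 0.96 ± 0.20, SE, adjusted p = 0.0104). It kept its call when any 1 array was left out, with values from 0.77 to 1.27 and adjusted p up to 0.0444, and missed it with array weights (0.47, adjusted p = 0.0504). At 3 months the means were 9.22 ± 0.13 and 8.93 ± 0.18 (SD, n = 3 each), and the difference of 0.29 ± 0.21 (SE, adjusted p = 0.478, 95% interval -0.16 to 0.75) did not pass. The change of the genotype difference between ages was -0.67 ± 0.29 (SE, adjusted p = 0.273, 95% interval -1.29 to -0.04). Without WT replicate 1 at 2 days it was -0.98 and passed (adjusted p = 0.00962), and with array weights it was -0.042 (adjusted p = 0.946), the ends of the range over the alternatives. With age FLNC differed by -0.50 in DMD KO (SE 0.20, adjusted p = 0.181) and by 0.17 in WT (SE 0.21, adjusted p = 0.867). The order of its groups was DMD KO at 2 days, DMD KO at 3 months, WT at 3 months and WT at 2 days, in which the first stood apart and the later neighbours overlapped.

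ACTN2 (probe set 15232085) was among the brightest probe sets of every array, between percentiles 98.7 and 99.8 of the array. Its levels at 2 days were 12.52, 12.47, 12.36 and 12.46 in DMD KO and 11.77, 11.76 and 11.27 in WT replicates 1 to 3. At 3 months they were 11.90, 11.82 and 11.61 in DMD KO and 11.16, 11.41 and 10.93 in WT. The genotypes did not overlap at either age, and the DMD KO animals at 2 days lay closest together.

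The mean of ACTN2 at 2 days was 12.45 ± 0.07 (SD, n = 4) in DMD KO against 11.60 ± 0.29 (SD, n = 3) in WT, a 1.81-fold difference (log2 0.85 ± 0.14, SE, adjusted p = 0.00342). That call held under every alternative tried, with values from 0.69 to 0.94 and adjusted p up to 0.0148. At 3 months the means were 11.77 ± 0.15 and 11.17 ± 0.24 (SD, n = 3 each), a 1.52-fold difference (log2 0.61 ± 0.15, SE, adjusted p = 0.0334). This call did not hold without any 1 of 6 arrays, which were DMD KO replicates 2 and 4 at 2 days (adjusted p = 0.0513 and 0.051), DMD KO replicates 1 and 2 at 3 months (0.112 and 0.101) and WT replicates 1 and 3 at 3 months (0.0652 and 0.15). The difference itself lay between 0.49 and 0.74 over all alternatives, and adjusted p between 0.000791 and 0.15. The genotype difference changed by -0.25 ± 0.21 between ages (SE, adjusted p = 0.682, 95% interval -0.70 to 0.20).

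ACTN2 was lower at 3 months than at 2 days in DMD KO, at -0.68 ± 0.14 (SE, adjusted p = 0.00967), with no overlap of the 2 groups. In WT the difference of -0.43 ± 0.15 (SE, adjusted p = 0.197) did not pass, and WT animals of the ages overlapped. In DMD KO the adjusted p was 0.0505 without DMD KO replicate 3 at 3 months and between 0.000612 and 0.0505 over all alternatives. From high to low the groups ran DMD KO at 2 days, DMD KO at 3 months, WT at 2 days and WT at 3 months. Only DMD KO at 2 days stood clear of its neighbour, and the mean of DMD KO at 3 months was 0.18 above that of WT at 2 days with overlapping animals.

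MYOM2 (probe set 15235499) was measured at 8.96, 9.45, 8.47 and 9.06 in DMD KO replicates 1 to 4 and at 10.08, 10.05 and 9.59 in WT replicates 1 to 3 at 2 days. Every knockout animal lay below every wild-type animal, and DMD KO replicate 2 and WT replicate 3 lay nearest to each other. In the older pigs the values were 10.20, 10.44 and 9.84 in DMD KO and 10.46, 10.35 and 10.62 in WT. There DMD KO replicate 2 lay above the lowest WT animal.

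The mean of MYOM2 at 2 days was 8.99 ± 0.40 (SD, n = 4) in DMD KO against 9.91 ± 0.28 (SD, n = 3) in WT, a 1.89-fold lower level (log2 -0.92 ± 0.21, SE, adjusted p = 0.0178). The call did not hold without WT replicate 1 (-0.83, adjusted p = 0.0573) or in a fit of the 2-day groups alone (adjusted p = 0.0557), within a range of adjusted p from 0.000566 to 0.0573. At 3 months the means were 10.16 ± 0.30 and 10.48 ± 0.14 (SD, n = 3 each), and the difference of -0.32 ± 0.23 (SE, adjusted p = 0.47, 95% interval -0.81 to 0.17) did not pass. The genotype difference changed by 0.60 ± 0.31 between ages (SE, adjusted p = 0.391, 95% interval -0.07 to 1.27).

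MYOM2 rose with age in DMD KO, by 1.17 ± 0.21 or 2.26-fold (SE, adjusted p = 0.00367), and this call held under every alternative tried. In WT it differed by 0.57 ± 0.23 between the ages (SE, adjusted p = 0.262), did not pass, and the WT groups did not overlap. Its groups ran WT at 3 months, DMD KO at 3 months, WT at 2 days and DMD KO at 2 days from high to low. Only DMD KO at 2 days lay apart from the group above it.

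**Figure D2:**
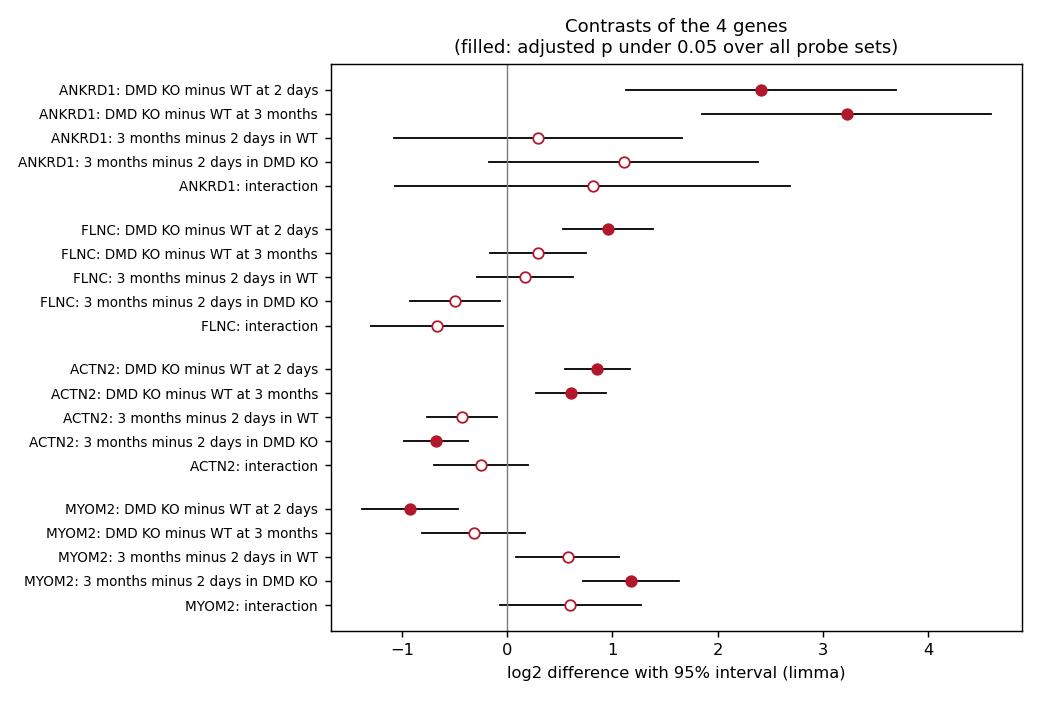
Log2 difference with its 95% interval for each gene in each of 5 contrasts (limma over 13 arrays), filled where the adjusted p over all probe sets was under 0.05; "interaction" is the amount by which the genotype difference of the older pigs exceeds that of the younger. The filled points are both genotype differences of ANKRD1 and ACTN2, those of FLNC and MYOM2 at 2 days, and the age differences of ACTN2 and MYOM2 in DMD KO, and every interval of the interaction except that of FLNC spans 0.

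The animals of a group also differed among themselves, and ANKRD1 and FLNC did so together. After the group mean was taken away, WT replicate 1 at 2 days was 1.87 above its group for ANKRD1 and 0.63 above it for FLNC, and WT replicate 2 was 1.47 and 0.38 below. WT replicate 3 at 3 months, the lowest of its group for ANKRD1, FLNC and ACTN2, was the highest for MYOM2. DMD KO replicate 3 at 3 months was the lowest of its group for all 4 genes. Across the 13 arrays the deviations of ANKRD1 and FLNC had Pearson's r = 0.93 (exact permutation within groups, two-sided p = 0.00829, and 0.0497 adjusted over 6 pairs of genes) and Spearman's rho = 0.846 (exact permutation p = 0.00887, and 0.0532 adjusted). Without the 2 arrays farthest from the median of ANKRD1, WT replicates 1 and 2 at 2 days, r was 0.742 over the 10 arrays of groups with more than 1 animal left. Without WT replicate 1 alone it was 0.735, and without any other single array 0.91 to 0.955. The other 5 pairs had r from 0.028 to 0.466 (exact permutation p from 0.129 to 0.945), among them 0.466 for FLNC and ACTN2 and 0.41 for ACTN2 and MYOM2. Over all probe sets, the leading axis of spread within groups held 44.9% of its variance. How often other pairs of probe sets reach such an r is not given here, so the relation is not shown to be particular to this pair. Labelling and RNA quality are shared by all probe sets of an array, and their part in these relations was not tested.

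**Figure D3:**
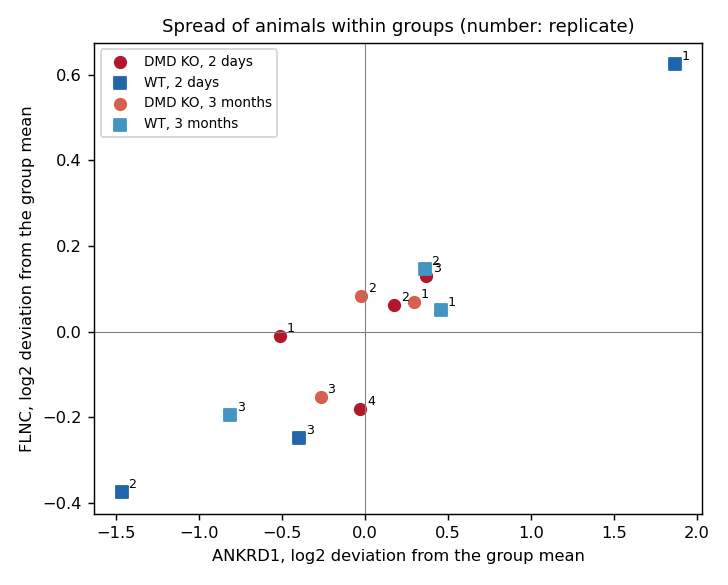
Deviation of each array from its group mean for ANKRD1 (horizontal) and FLNC (vertical), in log2 units, with the replicate number beside each point. WT replicates 1 and 2 at 2 days lie at the ends, at 1.87 and -1.47 for ANKRD1, and the other arrays lie closer to 0.

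Genes whose level ran most like that of each member were found by Pearson's r over the 13 arrays among named genes, a description with no test, in which the difference between groups counts as well. The 3 most like ANKRD1 were C1R (r = 0.951), a protease of complement, FREM1 (0.941), a protein of basement membranes, and CCDC141 (0.932). C1R was 0.66 higher in the younger DMD KO pigs (adjusted p = 0.00972) and 0.64 higher in the older ones (adjusted p = 0.0184). The 3 most like FLNC were PALMD (0.93), UNC45B (0.927), a chaperone of muscle myosin, and HSPB1 (0.925), a small heat shock protein. At the younger age UNC45B differed by 0.75 (adjusted p = 0.0135) and HSPB1 by 1.28 (adjusted p = 0.00893), and at the older age by 0.08 and 0.01 (adjusted p = 0.816 and 0.987). Nearest to ACTN2 were DDAH1 (0.96), which breaks down methylated arginines, PARD3B (0.944) and RELL1 (0.941). DDAH1 was 1.40 higher in the younger DMD KO pigs (adjusted p = 0.000187) and 0.67 higher in the older ones (adjusted p = 0.0114). Nearest to MYOM2 were LDHA (0.978), the lactate dehydrogenase subunit of glycolytic muscle, AMPD1 (0.962), the AMP deaminase of muscle, and CASQ1 (0.962), the calcium store protein of fast fibres. LDHA was lower in the younger DMD KO pigs (-0.82, adjusted p = 0.00209) and differed by -0.26 in the older ones (adjusted p = 0.317).

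Of the other alpha-actinins, ACTN3 was lower in DMD KO at both ages, and ACTN1 was lower at 2 days and, like ACTN2, higher at 3 months. ACTN3, the alpha-actinin of fast fibres, was lower in the younger DMD KO pigs (log2 -0.75 ± 0.16, SE, adjusted p = 0.0126) and in the older ones (log2 -1.22 ± 0.17, SE, adjusted p = 0.0011). It rose with age in both genotypes, by 2.01 in WT (adjusted p = 7.47e-05) and 1.55 in DMD KO (adjusted p = 8.38e-05). ACTN1, the alpha-actinin of non-muscle cells, was lower in the younger pigs (-0.35, adjusted p = 0.033) and higher in the older (0.62, adjusted p = 0.00257), and its genotype difference differed between the ages (0.97, adjusted p = 0.00134). MYOM1, the myomesin of all fibres, was higher at 2 days by 0.53 ± 0.15 (SE, adjusted p = 0.048), the opposite direction to MYOM2, and differed by -0.12 at 3 months (adjusted p = 0.702). The call of MYOM1 at 2 days is a narrow one and was lost under 16 of 22 alternatives. ACTN4, FLNA, the other ankyrin repeat proteins ANKRD2 and ANKRD23, and MYOM3 were not analysed here.

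Of all probe sets, 7.09% were called higher in DMD KO and 2.85% lower at 2 days, and 4.62% and 1.36% at 3 months. The counts of each list below are to be read against these shares. The lists share some genes and were chosen with earlier results of these data known, so their counts are no test. Of 19 other measured Z-disc genes (of 30 listed) 5 rose and 1 fell at 2 days, with a median difference of 0.46 where all probe sets had -0.02. The 5 were PDLIM3 (0.85), which binds alpha-actinin 2, NRAP (0.80), a scaffold of forming myofibrils, XIRP1 (0.77) and XIRP2 (0.64), the Xin proteins that bind filamin C and actin, and TCAP (0.74), the cap of titin. ACTN3 was the 1 that fell. The number that rose was 8 without WT replicate 2 or 3 at 3 months and between 4 and 8 when any 1 array was left out. At 3 months 2 rose and 2 fell, with a median of -0.01 where all probe sets had -0.05. CSRP3 (muscle LIM protein), a partner of alpha-actinin and TCAP in the Z-disc, was higher by 2.04 ± 0.51 (SE, adjusted p = 0.0346), and CAPZA1, a cap of the barbed ends of actin, by 1.003 (adjusted p = 0.0264). LDB3 (ZASP or Cypher), which binds alpha-actinin 2, was lower at -0.66 (adjusted p = 0.0437), as was ACTN3. CSRP3 had differed by 1.37 at 2 days (adjusted p = 0.0907), its animals overlapped between genotypes at 3 months, and its call was lost under 9 alternatives, as was that of LDB3 under 13. The number that rose was 0 without DMD KO replicate 1 or WT replicate 3 at 3 months.

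Of 4 other measured M-band genes (of 9 listed), MYOM1 rose at 2 days, and 0 were called at 3 months. Their median differences were 0.08 and -0.13. So MYOM2 was the 1 measured gene of the M-band list that fell at 2 days, a statement about 5 genes.

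The filamin repair list holds genes of the autophagy that removes damaged filamin C together with other chaperones. Of its 9 measured genes (of 10 listed) 5 rose at 2 days, with a median difference of 0.76. They were DNAJB6 (1.40), HSPB1 (1.28) and CRYAB (1.14), all chaperones of the Z-disc, SQSTM1 (0.95), the cargo receptor, and BAG3 (0.50), the co-chaperone that directs the process. HSPB8, the partner of BAG3, differed by 0.76 (adjusted p = 0.0859), and SYNPO2, which is also in the Z-disc list, by 0.46 (adjusted p = 0.0569). HSPA8 and STUB1 differed by -0.39 (adjusted p = 0.0535) and -0.07 (adjusted p = 0.621). These genes were not called. The number that rose was 4 without WT replicate 3 at 2 days and between 4 and 7 when any 1 array was left out. At 3 months DNAJB6 (0.67, adjusted p = 0.0249) was the 1 gene called, and the median was 0.12. It was not called without DMD KO replicate 3, WT replicate 2 or WT replicate 3 of that age.

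**Figure D4:**
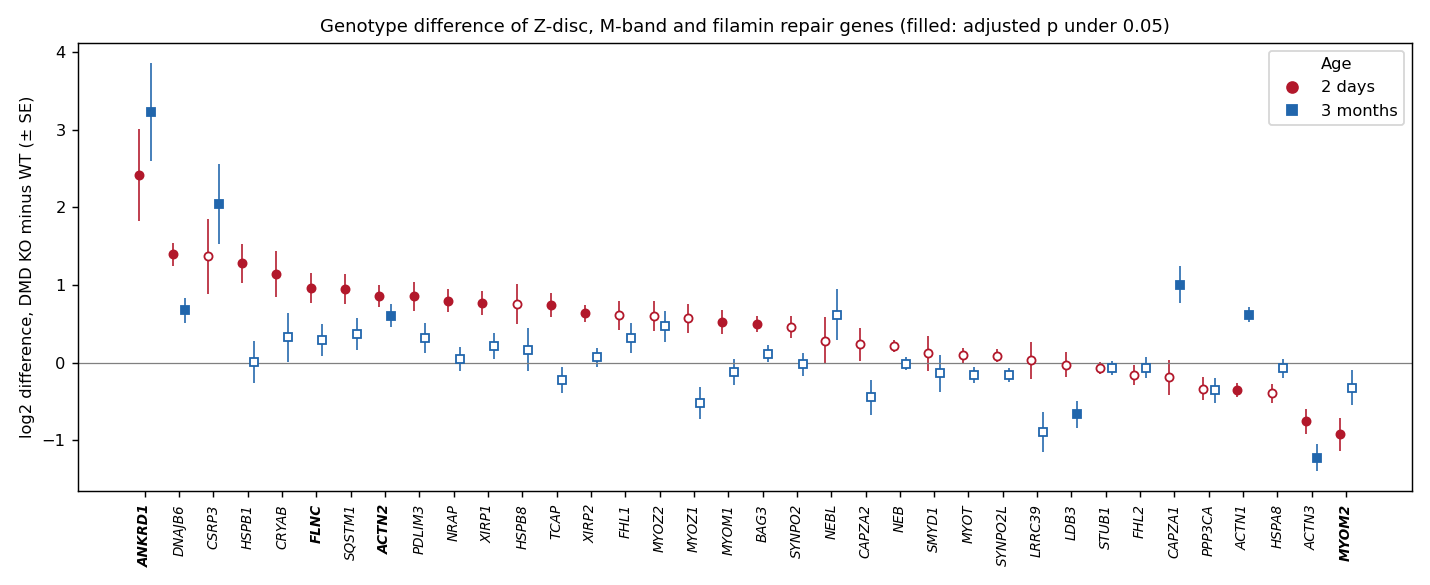
Log2 difference (DMD KO minus WT, ± SE) at 2 days (circles) and 3 months (squares) of the 4 genes (bold) and the measured genes of the Z-disc, M-band and filamin repair lists with ACTN1, ordered by the difference at 2 days and filled where the adjusted p was under 0.05. FLNC and ACTN2 stand among the chaperones and Z-disc genes that rose at 2 days, ANKRD1 lies at the top at both ages, and MYOM2 and ACTN3 lie at the bottom at 2 days.

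Costameres link the membrane to the Z-disc through integrin, talin and vinculin. Of 11 measured costamere genes (of 18 listed) 3 rose at 2 days, NEXN (0.57), SVIL (0.54) and TLN2 (0.50), and the median difference was 0.05. None of the 3 was called without WT replicate 3. At 3 months LIMS1 (0.74), an adaptor of the integrin complex, and ZYX (0.40), zyxin, rose, the median was 0.01, and 0 were called without WT replicate 2 of that age.

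YAP and TAZ bind the TEAD factors and are known to act in the response of cells to tension, and ANKRD1 is one of their known targets. Of 11 measured genes of that pathway (of 16 listed) 1 rose at 2 days and 2 at 3 months, with medians of 0.09 and 0.10. The 1 of 11 at 2 days is near the 7.09% of all probe sets called higher. WWTR1, the gene of TAZ, was 0.61 ± 0.16 higher in the younger DMD KO pigs (SE, adjusted p = 0.0287) and 0.90 ± 0.17 higher in the older ones (SE, adjusted p = 0.00662). MOB1A, a cofactor of the LATS kinases that restrain both, was higher at 3 months by 1.05 (adjusted p = 0.0432). YAP1 differed by 0.07 (adjusted p = 0.769) and 0.21 (adjusted p = 0.451), and TEAD1 by 0.37 (adjusted p = 0.147) and -0.01 (adjusted p = 0.973). MOB1A was called under 10 of 22 alternatives. The call of WWTR1 at 2 days did not hold without any 1 of the 4 DMD KO arrays of that age or without WT replicate 3.

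Of 7 other measured targets of YAP and TAZ (of 15 listed) 1 fell at 2 days and 1 rose at 3 months, with medians of -0.10 and 0.02, and the part of YAP and TAZ in the level of ANKRD1 was not tested. Both calls were NT5E, an enzyme of the cell surface, at -0.78 (adjusted p = 0.00114) and 0.60 (adjusted p = 0.00712). CTGF (CCN2) and CYR61 (CCN1), the most used markers of the pathway, differed by -0.29 (adjusted p = 0.0825) and -0.10 (adjusted p = 0.722) at 2 days, and by -0.01 (adjusted p = 0.976) and 0.02 (adjusted p = 0.95) at 3 months. Of 14 measured stretch- and actin-responsive genes (of 17 listed) XIRP1 rose and TPM4 (-0.70) fell at 2 days, and CSRP3 and ACTC1 (3.25), the cardiac actin also made in developing muscle, rose at 3 months. At each age 12 were not called, and the medians were -0.05 and 0.09, where all probe sets had -0.02 and -0.05. The 1 of 14 that rose at 2 days is near the 7.09% of all probe sets called higher. XIRP1 and CSRP3 are also in the Z-disc list, so their calls are counted in both lists.

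Some genes of slow and fast fibres differed between the genotypes as well. Of 8 measured slow-fibre genes (of 12 listed) 4 rose at 2 days, with a median difference of 0.96, and their mean level ran from 11.23 to 11.49 in DMD KO and from 10.08 to 10.46 in WT. The 4 became 2 without DMD KO replicate 2 or 3 or WT replicate 3 at 2 days, and 7 and 8 without WT replicates 2 and 3 at 3 months. Of 9 measured fast-fibre genes (of 13 listed) 3 fell at 2 days (median -0.21), with mean levels from 10.21 to 10.59 in DMD KO and 10.54 to 10.99 in WT. At 3 months 1 slow-fibre gene rose, CASQ2 (3.46), with a median of the list of 0.12. At that age 3 fast-fibre genes fell, PVALB (-4.96), ATP2A1 (-0.95) and TNNC2 (-0.61), with a median of -0.52. The mean level of the slow list then ran from 10.84 to 11.12 in DMD KO and from 9.74 to 10.96 in WT, which overlap, and that of the fast list from 10.72 to 11.04 in DMD KO and 11.74 to 11.94 in WT. These mean levels at 3 months include CASQ2 and PVALB, whose differences lay far from the medians, so they do not describe each list as a whole. MYL3 of the slow list differed the other way at 3 months (-1.05, adjusted p = 0.124). The part of fibre type in the differences of the 4 genes was not tested.

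Markers of other cells differed too. All 7 measured fibroblast markers (of 8 listed) were lower in DMD KO at 2 days (median -1.26, mean level 9.15 to 9.43 against 10.52 to 10.60 in WT), and 5 of the 7 were higher at 3 months (median 0.73, mean level 10.56 to 10.67 against 9.70 to 10.14). The 5 were 2 without DMD KO replicate 1 or WT replicate 2 at 3 months, and 3 without DMD KO replicate 2 or 3 or WT replicate 3. Of 7 macrophage markers (of 10 listed) 0 were called at 2 days and 4 rose at 3 months. The mean level of the 7 was then 7.99 to 8.35 in DMD KO and 7.17 to 7.45 in WT. MSR1 rose most (3.10, where the list median was 0.72), and C1QA (0.08), CSF1R (-0.04) and ITGAM (0.14) were not called. Of 5 tendon markers (of 8 listed) 2 fell at 2 days (mean level 6.71 to 7.02 in DMD KO and 7.68 to 9.12 in WT). KERA fell most (-3.50, where the list median was -1.72), and TNMD (-1.72), COMP (-0.32) and CILP2 (-0.07) were not called. The mean levels of the macrophage and tendon lists do not describe each list as a whole. Of 5 heart muscle markers, 0 were called at either age, and their group means ran from 6.41 for RYR2 to 8.13 for NKX2-5. Of 6 adipocyte, 4 endothelial and 5 smooth muscle markers 1 fell, 1 rose and 0 were called at 2 days, and 0, 0 and 1 fell at 3 months, and of 3 red blood cell markers 0 were called. Of 4 regeneration genes (of 13 listed) 1 rose at 2 days and 2 at 3 months. The part of other cells in the differences of the 4 genes was not tested. The 5 skeletal muscle markers had 1 rise and 1 fall at 2 days and 0 calls at 3 months, with mean levels from 11.38 to 11.62 at 2 days, and from 11.39 to 11.66 in DMD KO and 11.82 to 11.85 in WT at 3 months.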

How the data were processed

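Total RNA from 13 muscle samples was labelled with biotin and hybridised to Affymetrix arrays. The deposited table holds log2 values of 21893 probe sets, which the authors computed, per the submitters' processing notes, with the program Affymetrix Power Tools. Not given in the sources used are its version and how probes were summarised, background-corrected and normalized. The log2 base is inferred from the range of the values. They were used unchanged, with no filter, and signal over background was not analysed here. Of the probe sets, 11028 carried 1 symbol in the annotation of the array, 418 several and 10447 none. A gene was represented by its probe set with the highest mean.

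Group means of all probe sets were fitted by lmFit and eBayes of limma 3.58.1 (R 4.3.3), 1 mean for each of 4 groups, leaving 9 residual degrees of freedom. Tests were two-sided with Benjamini-Hochberg adjustment over all probe sets. The procedure was run on simulated data with independent noise for each probe set, without the spread that real probe sets of an array share. That run cannot show how the calls behave under such shared spread. SE is limma's moderated standard error. The members and the 22 gene lists, 20 of which had a measured gene beside the 4 members, were chosen with earlier results of these data known. Members were removed from the lists before counting. Named genes were the members, their measured relatives, and called genes of the lists, up to 3 of largest difference per genotype comparison. That rule was followed for the lists of muscle structure, filamin repair, YAP and TAZ, and stretch. For the fibre lists it was followed at 3 months only. Of the called genes of other cells only MSR1 and KERA were named, with their values seen, and those of regeneration were not named. BAG3, SQSTM1, TCAP, XIRP2, LDB3, and genes printed without a call, were added with their values seen. The correlation tests within groups were added later too. Alternatives were a fit restricted to a contrast's own groups, trended and robust eBayes, quantile normalization, median centring, only probe sets above the median level, array weights, the score on the leading axis of spread within groups as a covariate, a replicate block, the mean of all probe sets of a symbol, and leaving out each array.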

Additional observations from a re-analysis of the deposited data

Results flagged for a closer look

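The animals of DMD KO at 2 days, the 1 group of 4, were checked for an array far from the rest in 48 of the genes named above, of which chance marks about 1 in 20. MYOM1 had replicate 3 at 11.30 with the others between 11.59 and 11.64, a gap that filled 0.842 of the range. CRYAB had replicate 4 at 11.26 and the others between 11.88 and 11.97, a gap of 0.875 of the range. None of the 4 members had such an array.

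The genotype difference itself differed between the ages (limma's interaction, adjusted p under 0.05) for 8 of those genes and for none of the 4 members. Of all probe sets 5.05% were called. Many of the genes checked had been entered for a call between the genotypes, so the 8 are not a fair count against that share. Called interactions of genes outside that set, such as CASQ2 and PVALB of the fibre lists, are not counted here. ACTN1 had an interaction of 0.97 (adjusted p = 0.00134), from lower in DMD KO at 2 days to higher at 3 months. NT5E had 1.38 (adjusted p = 0.000323) with calls in opposite directions at the ages as well. TPM4 had 1.23 (adjusted p = 0.00719), LIMS1 0.82 (adjusted p = 0.0405) and TLN2 -0.77 (adjusted p = 0.026). TCAP had -0.96 (adjusted p = 0.0276) and DDAH1 -0.73 (adjusted p = 0.0422), both with a smaller or opposite difference at 3 months. ACTC1 had 3.76 (adjusted p = 3.85e-05), and fell with age in WT (-3.44, adjusted p = 1.65e-05) while it differed by 0.32 in DMD KO (adjusted p = 0.543).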

How the results depend on the processing

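Arrays give no counts, and 3 or 4 animals a group limit every value. Of the 20 results of the 4 genes (4 genes, 5 contrasts), those of ANKRD1, FLNC and MYOM2 between genotypes at 3 months, ACTN2 between genotypes at 2 days, and MYOM2 between ages in either genotype kept direction and side of the threshold under all 22 alternatives. Causes of the changes below were not tested.

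ANKRD1 at 2 days between genotypes was 2.41 (adjusted p = 0.0761) with the 2-day groups alone, 1.01 (0.16) with array weights, 2.36 (0.0613) after adjustment for the axis score, 2.42 (0.0801) under the replicate block, and 1.68 to 3.35 without single arrays. ANKRD1 with age was 1.11 in DMD KO in the fit of those groups alone (adjusted p = 0.00955), and in WT it was -1.48 with array weights and -0.44 to 1.23 without single arrays, negative without WT replicate 2 at 2 days. Its interaction was 2.61 (adjusted p = 0.0492) with array weights and -0.12 to 1.54 without single arrays. FLNC at 2 days was 0.47 with array weights. FLNC with age in WT was -0.39 with array weights and -0.016 to 0.48 without single arrays, and in DMD KO -0.50 in the fit of those groups alone (adjusted p = 0.0145) and -0.56 to -0.42 without single arrays (passing without WT replicate 1 at 2 days, adjusted p = 0.0189). Its interaction was -0.042 with array weights (adjusted p = 0.946) and -0.98 to -0.48 without single arrays. ACTN2 at 3 months was 0.61 (adjusted p = 0.072) with those groups alone, 0.54 (0.0541) with the axis score, and 0.49 to 0.73 without single arrays. ACTN2 with age in WT was -0.68 with array weights (adjusted p = 0.00152) and -0.59 to -0.31 without single arrays (-0.59 and passing without WT replicate 3 at 2 days), and in DMD KO -0.74 to -0.59. Its interaction was 0.045 with array weights. MYOM2 at 2 days was -0.92 with those groups alone and -1.08 to -0.75 without single arrays, and its interaction was 0.86 (adjusted p = 0.0458) with array weights. The algorithm for array weights stopped before it reached its tolerance.

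Counts of called probe sets moved more. At 2 days the 2175 were 1275 with the groups alone, 5438 with array weights, 735 with the replicate block, and from 1143 (DMD KO replicate 4 left out) to 3210 (WT replicate 2 left out) without single arrays. At 3 months the 1310 were 3412 and 829 with array weights and the block, and 702 to 2036 without single arrays. With age in WT the 633 were 40 with the groups alone, 2562 with array weights, 1983 with the axis score, 325 with the block and 368 to 757 without single arrays. In DMD KO the 1760 were 3743, 3253 and 1087 with array weights, the axis score and the block. For the interaction the 1105 were 2760, 2566 and 580. The labels do not say that replicate numbers pair animals. Deviations of same-numbered animals correlated from -0.351 to 0.309, and only number 2 at 3 months correlated best with its own number. The interaction needs all 4 groups, so it has no fit of fewer groups. The mean of all probe sets of a symbol leaves the 4 genes as they are, since each has 1.

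Among those other named genes for which the genotype differences were recomputed, these uncalled values turned their sign. At 2 days LDB3 was 8e-04 with the axis score, 0.024 with the replicate block and -0.12 to 0.024 without single arrays, YAP1 -0.052, -0.093 and -0.006 with array weights, the axis score and the block and -0.037 to 0.14 without single arrays, CYR61 0.17 with the axis score and -0.27 to 0.0899 without single arrays, and FREM1 -0.083 with array weights. At 3 months quantile normalization gave 0.0027 for HSPA8, -0.054 for UNC45B and -0.045 for HSPB1. Array weights gave 0.061 for TCAP, 0.05 for HSPA8, 0.1 for TEAD1 and 0.058 for CTGF, and the axis score -0.12 for HSPB8, 0.083 for CTGF and -0.016 for UNC45B. Without single arrays HSPB8 ranged -0.065 to 0.36, HSPA8 -0.17 to 0.0198, TEAD1 -0.11 to 0.089, CTGF -0.067 to 0.059, CYR61 -0.11 to 0.14, UNC45B -0.0601 to 0.17 and HSPB1 -0.26 to 0.28.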
